A study of Mus musculus with 2 samples.

Results

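The clustered histone genes were described in DNase-seq data from mouse spleen. They were the protein-coding genes of the GENCODE annotation whose symbols begin with Hist1h, Hist2h, Hist3h or Hist4h, 67 of 21755 protein-coding genes outside the Y chromosome. The genes were chosen by symbol alone, but the family itself was selected on the promoter peaks called in these libraries, so its counts and levels are given as descriptions without a test. Of the 67 genes, 6 encode the linker histone H1, 18 encode H2A, 18 encode H2B, 12 encode H3 and 13 encode H4. The Hist1 cluster on chromosome 13 holds 54 of them, Hist2 on chromosome 3 holds 10, Hist3 on chromosome 11 holds 2 and Hist4 on chromosome 6 holds 1.

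In DNase-seq, open chromatin is mapped by sequencing where DNase I, a nuclease, has cut it. The 2 libraries came from spleen of female B6CASTF1/J mice, 36 days old, which are first-generation hybrids of C57BL/6 and CAST parents. The mice carried no stated treatment or engineered allele, and the libraries formed 1 group, so no conditions could be compared. The labels number the females separately but attach the same donor entry to both libraries, and the spread between them may in part be technical. Replicate 1 had 42454 peaks and 133725 footprints, and replicate 2 had 60683 and 246700. Their read depth is not given in the sources used here. Of marker genes fixed for the tissue check, those of B cells had peaks at 6 of 6 promoters in both libraries, those of T cells at 3 and 4 of 5 and erythroid ones at 2 and 4 of 4. Genes of liver, kidney, heart, pancreas or skeletal muscle had peaks at 0 of 7.

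Histone proteins package DNA into nucleosomes, and H1 binds the DNA between them. The clustered genes supply most of the histone made while DNA is replicated. Their short transcripts lack introns and a poly(A) tail in their usual form and end in a stem-loop, and many H2A and H2B genes lie head to head and share the DNA between them. Their promoters are known for class-specific elements, among them an H4 element, an octamer in H2B promoters and an H1 box. Spleen holds resting and dividing blood cells, and in such a bulk sample more open cells and more open chromatin per cell cannot be told apart.

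A promoter peak, here a peak in the shorter of each library's deposited lists that reached within 1 kb of an annotated start site, was present at 57 of the 67 histone genes in replicate 1 and at 59 in replicate 2. The background over all protein-coding genes was 53.9% and 57.4%. The share of histone genes was 86.6% ± 2.11 (SD, n = 2). The same 57 genes had a peak in both libraries, and 8 had one in neither. Each peak carries the authors' signal value, whose scale is not given, so peaks were placed by their percentile among all peaks of the same library. Taking each gene's strongest promoter peak, the median percentile of the histone genes was 82.9 and 87.6 in the replicates, beside 85.5 and 88.5 for all genes with a promoter peak. Peaks at histone genes were thus frequent, while their median percentile lay below that of all promoters in each library. The SD of the histone median between the libraries was 3.28. Both medians rose from replicate 1 to replicate 2, so this SD does not measure the error of the gap.

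Among members with a promoter peak, the nearest peak lay at most 329 bases from its start site, at Hist1h3f in replicate 1. The nearest peaks left out lay 1065 bases away, at Hist1h2ab in replicate 1, and 1085 bases away, at Hist2h3c1 in replicate 1. For 13 members the annotated model begins at the start codon, and for 2 the start codon lies over 1000 bases from the annotated start. Positions below are therefore counted from the start codon, and the window from 250 bases before to 50 bases after it is called the start codon window.

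The H4 genes, which encode the most conserved core histone, had the strongest peaks by class median. Each of the 13 had a promoter peak in each library. The strongest peak in the start codon window had a median signal of 7.54 in replicate 1 and 9.22 in replicate 2, at percentiles 92.4 and 93.4. The H1 genes had 4 and 5 of 6 with a promoter peak, and medians of 4.94 and 5.60 in the start codon window. The H2A genes had 14 and 15 of 18 with a peak, and medians of 4.05 and 5.58. The H2B genes had 15 of 18 in both, and medians of 3.26 and 5.41. The H3 genes had 11 of 12 in both, and the medians were 3.36 and 3.49. The H4 median was the highest of the 5 in both libraries, but the genes of all classes overlapped. Signals of H4 genes ran from 1.02 to 11.1 in replicate 1 and from 1.49 to 17.9 in replicate 2.

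**Figure D1:**
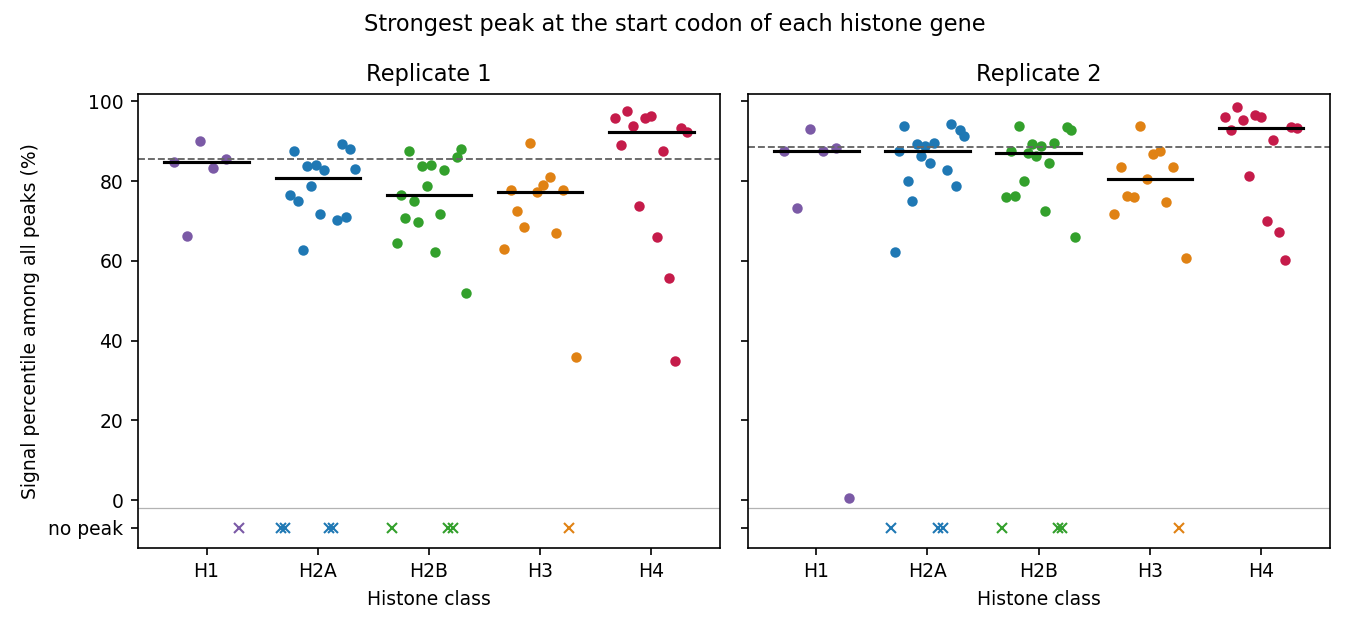
Signal percentile of the strongest peak in the start codon window of each histone gene (points) by class in each library, with the class median (black bar), genes without a peak (crosses) and the median over all genes with a promoter peak within 1 kb (dashed line). The H4 median stands highest, at 92.4 and 93.4, above the dashed line at 85.5 and 88.5, and all 13 H4 genes have a peak.

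Within H4, Hist1h4c (chr13:23697635-23698454, minus strand) had the strongest peak of all members, with a signal of 11.1 in replicate 1 and 17.9 in replicate 2, at percentiles 97.6 and 98.7. Hist1h4h had signals of 9.57 and 13.3, and Hist1h4i had 10.03 and 12.3. The weakest were Hist1h4n, with signals of 1.02 and 1.49, and Hist1h4m, with 1.60 and 1.89. Outside the Hist1 cluster, Hist4h4 had 7.54 and 9.22 and Hist2h4 had 8.01 and 9.51. Hist1h4n also had the lowest strongest peak of any member in replicate 1, so the H4 genes of Hist1 held both ends of the family's range there.

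Among the H1 genes, Hist1h1c was highest with signals of 6.59 and 12.2, followed by Hist1h1e with 5.11 and 5.93. Hist1h1a had 4.94 and 5.61, and Hist1h1b was the lowest with a peak in both libraries, with 2.18 and 2.40. At Hist1h1c the strongest peak in replicate 2 was not at the promoter proper but centred 892 bases after the start codon, and a peak at the same place in replicate 1 had a signal of 6.14. Peaks outside the start codon windows were not rare in the family. Of 72 and 79 distinct peaks at histone promoters, 22 and 27 lay outside every start codon window. Their midpoints lay on both sides of the start codon, and the median of the signed distances was 359 and 412 bases after it.

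Among the H3 genes, Hist1h3a had signals of 9.56 and 12.3, but the peak is the one at the neighbouring Hist1h4a and was counted for both. At its own start codon window the signals of Hist1h3a were 1.97 and 2.25, among the lowest of the class. Hist1h3e had its own peak, with 6.47 and 9.69. The lowest were Hist2h3c2, with 1.04 and 1.51, and Hist1h3i, with 2.24 and 2.57. Hist2h3b had 5.31 and 9.31, the peak that Hist2h2bb also carries, and 3.43 and 4.22 at its own start codon window. Hist1h3e was thus the highest H3 gene whose peak no other histone gene shared.

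Among the H2A genes, Hist2h2aa2 was highest with 6.33 and 10.2, and Hist1h2ad had 5.75 and 9.62. Of H2A genes with a peak in both libraries Hist1h2af was lowest with 1.96 and 2.62, and Hist1h2ae had 3.05 and 3.38. Of the other H2A genes outside Hist1, Hist2h2ab and Hist2h2ac shared a peak of 5.91 and 8.60. That peak lay in the start codon window of Hist2h2ac, while Hist2h2ab had 2.585 and 3.167 in its own. Hist3h2a had 4.51 and 7.52, and Hist2h2aa1 had 3.51 and 4.02. Among the H2B genes, Hist2h2be was highest in replicate 1, with 5.91 and 8.60, and Hist1h2bf in replicate 2, with 5.75 and 9.62. Hist3h2ba was lowest with 1.46 and 1.80, and Hist1h2bm had 1.93 and 2.33. The best H2A and H2B genes of the Hist1 cluster, Hist1h2ad and Hist1h2bf, are partners that share 1 peak.

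Head-to-head pairs, with start sites on opposite strands at most 1000 bases apart, numbered 13 and held 26 members. Of these pairs 12 joined an H2A gene to an H2B gene and 1 joined Hist1h2bh to Hist1h3f. The same peak was the strongest for both partners at 10 of the 13 pairs in each library, and the other 3 pairs had no peak. Start sites of the pairs were 176 to 660 bases apart, so the windows of partners overlapped, which by itself favours a shared peak. Hist1h2bh and Hist1h3f each had a peak in their own start codon window. These had signals of 2.48 and 5.41 at Hist1h2bh and 3.36 and 3.49 at Hist1h3f. The peak counted as shared was that of Hist1h3f in replicate 1 and that of Hist1h2bh in replicate 2. Of all distinct peaks at histone promoters, 25 of 72 and 26 of 79 lay within 1 kb of more than 1 histone gene, a share of 33.8% ± 1.28 (SD, n = 2). For all protein-coding genes, 11.1% and 10.4% of promoter peaks lay within 1 kb of more than 1 gene. The 9 peaks whose place lay in the start codon windows of both an H2A and an H2B gene had a median width of 300 bases in replicate 1 and 280 in replicate 2, beside 220 bases for all peaks in a histone start codon window. Their median signal was 4.48 and 6.21, beside 2.55 and 3.17 for the 6 and 7 peaks at H2A genes alone and 2.01 and 2.54 for the 6 peaks at H2B genes alone in each library. The peaks at 1 class alone include more than 1 at Hist2h2ab in both libraries, Hist1h2bb in replicate 1 and Hist3h2ba in replicate 2. They also include that of Hist1h2bh, whose partner is an H3 gene.

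The strongest pair in the Hist1 cluster, Hist1h2bf and Hist1h2ad, shows how footprints fill such a shared promoter. Footprints are short stretches within open chromatin that are cut less than their surroundings, called by the authors at a false discovery rate of 0.01. The 184 bases between the start sites (chr13:23574197-23574380, plus strand, mm10) are printed for each library with the bases inside footprints in capitals. Hist1h2bf reads to the left and Hist1h2ad to the right.
Hist1h2bf to Hist1h2ad, replicate 1: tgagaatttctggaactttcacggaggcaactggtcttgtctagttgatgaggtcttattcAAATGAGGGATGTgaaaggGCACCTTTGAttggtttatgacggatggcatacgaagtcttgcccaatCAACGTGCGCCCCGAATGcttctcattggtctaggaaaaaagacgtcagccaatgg
Hist1h2bf to Hist1h2ad, replicate 2: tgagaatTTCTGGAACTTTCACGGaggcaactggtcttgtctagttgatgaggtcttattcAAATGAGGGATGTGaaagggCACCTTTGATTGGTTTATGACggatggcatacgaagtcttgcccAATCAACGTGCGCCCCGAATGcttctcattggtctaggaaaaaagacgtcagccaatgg
Footprints covered 41 of these bases in replicate 1 and 73 in replicate 2. The peak held 5 footprints in each library.

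The promoter of Hist1h4c, the strongest member, is shown in the same way, as the 200 bases before its start site on its own strand (chr13:23698455-23698654, minus strand, mm10).
Hist1h4c, replicate 1: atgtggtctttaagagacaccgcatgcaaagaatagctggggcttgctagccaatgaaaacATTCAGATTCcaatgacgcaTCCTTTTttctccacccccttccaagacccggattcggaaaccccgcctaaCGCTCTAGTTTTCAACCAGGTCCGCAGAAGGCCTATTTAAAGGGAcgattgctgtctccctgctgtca
Hist1h4c, replicate 2: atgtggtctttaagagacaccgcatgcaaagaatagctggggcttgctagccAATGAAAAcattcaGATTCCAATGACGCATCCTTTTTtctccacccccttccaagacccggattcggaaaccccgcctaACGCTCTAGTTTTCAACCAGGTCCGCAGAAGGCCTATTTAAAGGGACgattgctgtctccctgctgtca
The long block of capitals near the right end covers the letters GGTCCG, the core of the H4 element, in both. Footprints covered 62 of the 200 bases in replicate 1 and 78 in replicate 2.

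The core of the H4 element was found in the start codon window of 12 of 13 H4 genes, always on the gene's own strand and with its first base 85 to 55 bases before the start codon. Hist1h4a was the exception. Searched on both strands from 250 bases before to 50 after the start site, GGTCCG occurred at 92.3% of H4 genes and at 9.73% of all protein-coding genes. The 12 sites are printed with the core in capitals and 12 bases on each side, to show what else they share.
Hist1h4j: ggttctcatttcGGTCCGcccgctacagta
Hist1h4k: ggttctcatttcGGTCCGcccgccgcagta
Hist1h4m: tgttttcactccGGTCCGcaagttccctat
Hist1h4n: tgttttcactccGGTCCGcaagttccctat
Hist1h4i: tgttttcactccGGTCCGcaagttccctat
Hist1h4h: agtcttcaatcaGGTCCGaaaacactgcat
Hist1h4f: agtcctctaaaaGGTCCGcattcgccatat
Hist1h4d: ggttttcaaacaGGTCCGcattggtattat
Hist1h4c: agttttcaaccaGGTCCGcagaaggcctat
Hist1h4b: agttctcaaccaGGTCCGataagagcctat
Hist2h4: agttttcaatctGGTCCGatcctctcatat
Hist4h4: tgttttcaatcaGGTCCGctcccaggaaat
Before the core, the letters at 11, 10, 7 and 6 bases before its first base were the same in 12 of 12 sites, namely G, T, T and C, although the search did not use them. The base 5 before it was A in 11 of 12. The 12 bases after the core were more varied, with A and T at its far end in 10 of 12 each. The stretch was letter for letter identical at Hist1h4i, Hist1h4m and Hist1h4n, and 10 of the 12 stretches were distinct.

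Footprints touched the H4 element core, by at least 1 base, at 9 of 12 sites in replicate 1 and at 12 of 12 in replicate 2. The sites not touched in replicate 1 were those of Hist1h4j, Hist1h4m and Hist1h4n, the 3 H4 genes with the lowest signals. As a reference, 34.1% of all 6-base placements in the strongest start codon peaks of H4 genes touched a footprint in replicate 1 and 44.0% in replicate 2. In the bin of 10 bases that begins 70 bases before the start codon, 11 of 13 H4 genes had a footprint in replicate 1 and 13 of 13 in replicate 2. By contrast, in the bin that begins 50 bases before it only 3 of 13 had one in both libraries. Fewer H4 genes shared a footprint farther out, 7 of 13 in replicate 1 and 8 of 13 in replicate 2 in the bins that begin at positions -140 and -130 from the start codon. Hist1h4a, without the searched letters, had no footprint in the bin at 70 in replicate 1, and in replicate 2 a footprint over its TATA box reached into that bin.

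**Figure D2:**
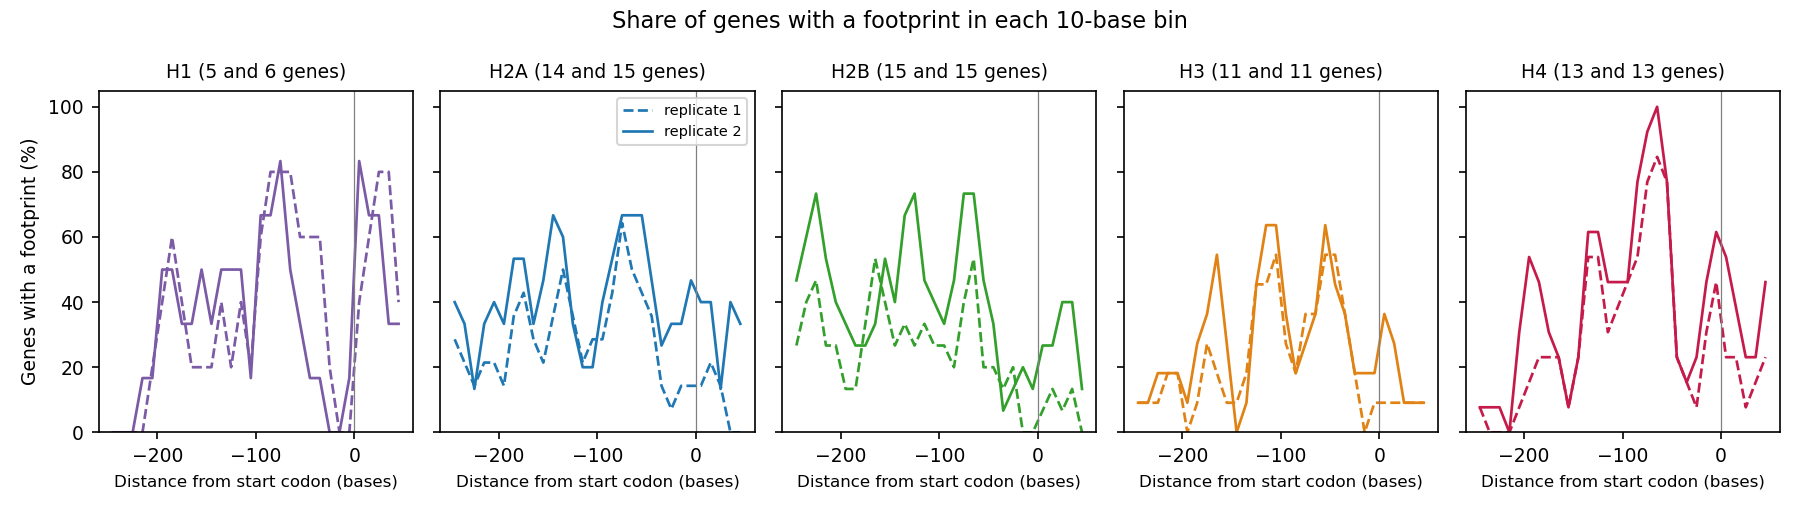
Share of genes with a footprint in each 10-base bin around the start codon, by class, among genes with a peak there (numbers for replicate 1 and 2 in the panel titles). In the H4 panel the share reaches 84.6% in replicate 1 and 100% in replicate 2 in the bin from 70 bases before the start codon.

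The share of peak taken up by footprints was largest at H1 genes in replicate 1 and at H4 genes in replicate 2. In the strongest peak of each start codon window, 25.2% of the bases at H4 genes lay in footprints in replicate 1 and 33.5% in replicate 2. The share was 29.8% and 28.4% at H1 genes, 17.7% and 27.3% at H2A genes, 14.2% and 28.2% at H2B genes and 16.9% and 21.8% at H3 genes. Over all promoter peaks it was 19.7% and 22.6%. The number of footprints per distinct histone promoter peak was 3.03 ± 0.344 (mean ± SD, n = 2), from 2.79 and 3.28 in the single libraries, beside 2.89 and 3.08 for all promoter peaks. The strongest peaks of the start codon windows held more, 3.39 and 3.88 per peak. Of their footprints, 74.7% in replicate 1 and 57.1% in replicate 2 were found in the other library. A footprint counted as found with an overlap of at least 50% of the shorter one. For all promoter peaks these shares were 74.4% and 56.0%. Footprint number over all histone promoter peaks was thus close to that of promoters at large. It was higher in the strongest start codon peaks, but these are a selection, and no such selection was made for all genes. The same limit holds for the shares of bases in footprints. Repeatability in the strongest start codon peaks was close to that of promoters at large.

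**Figure D3:**
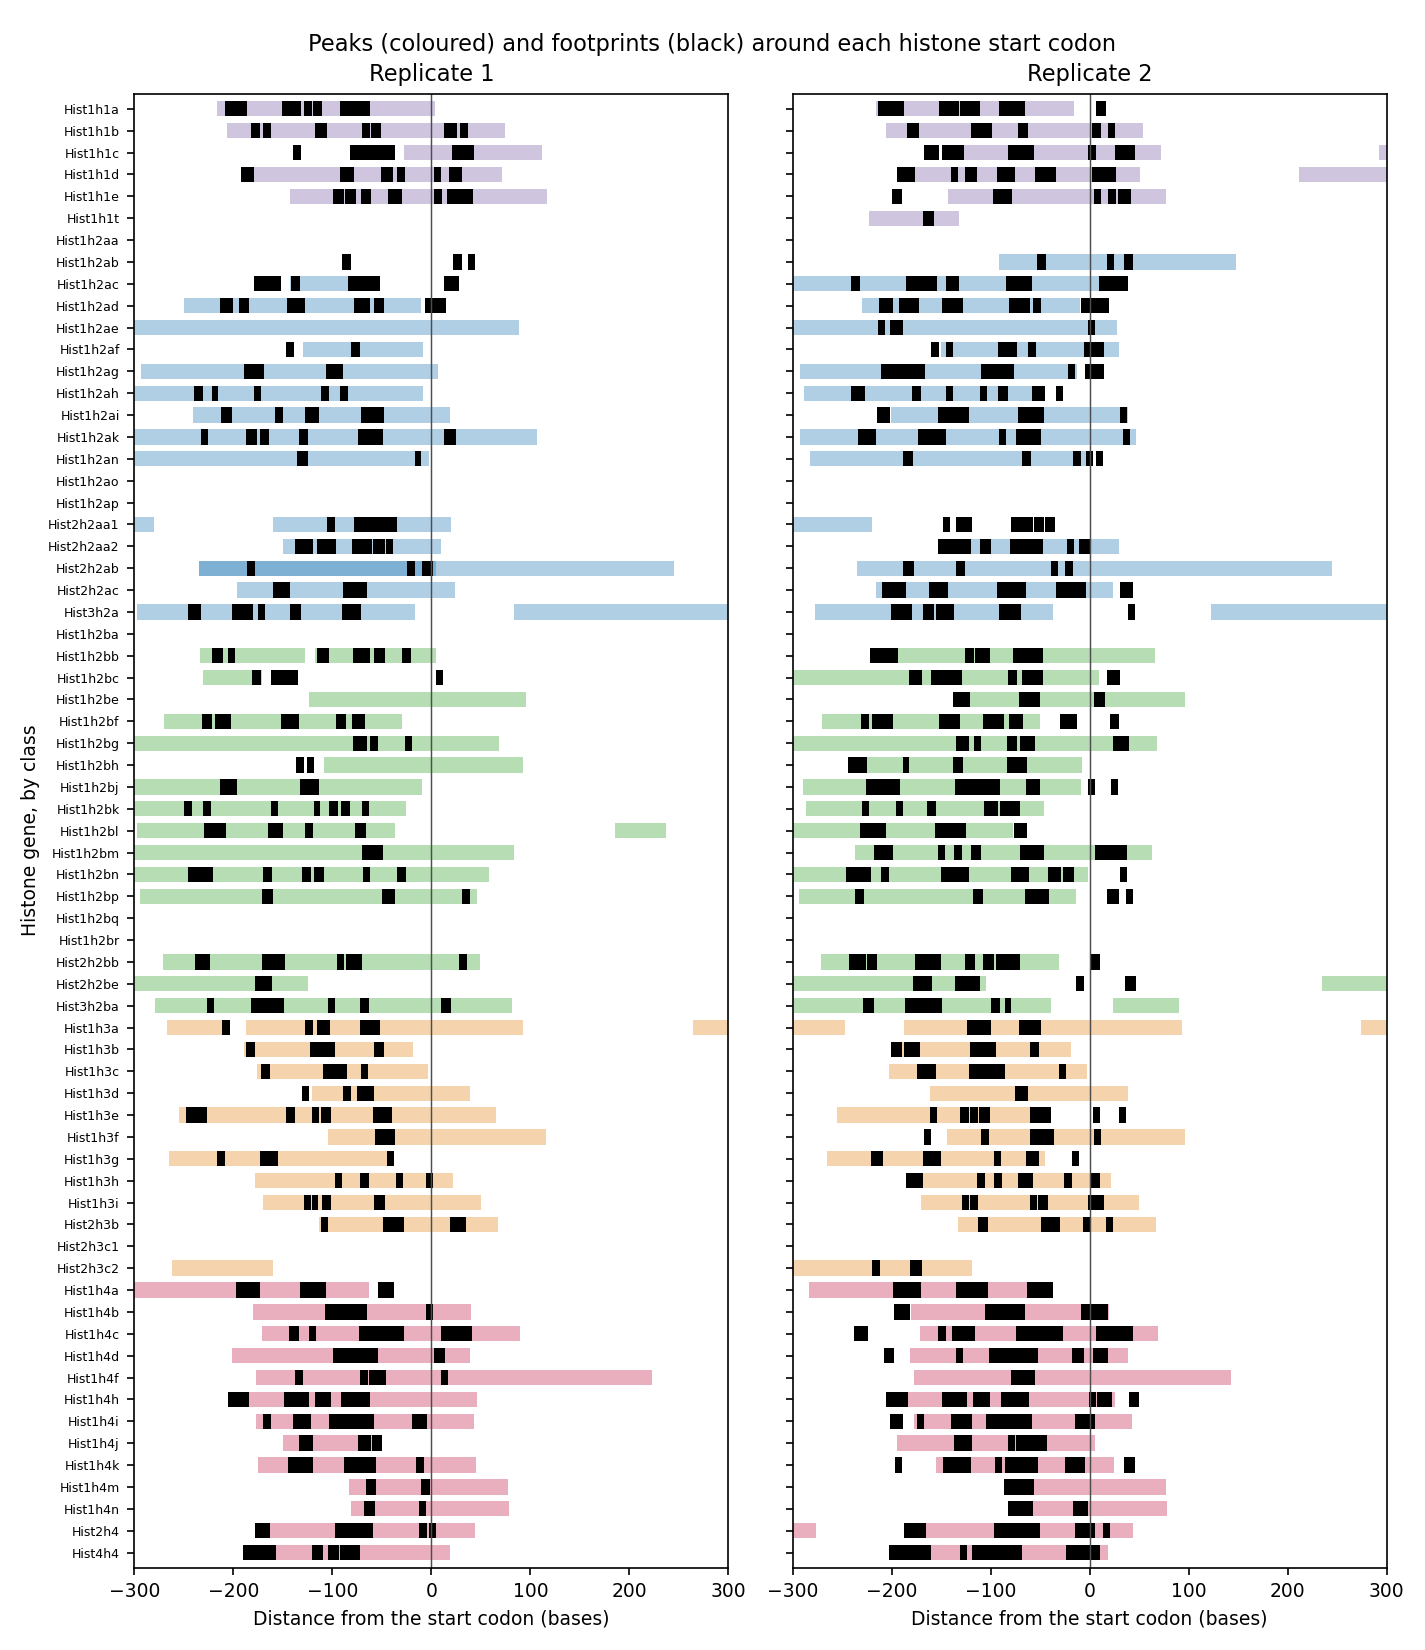
Peaks (coloured bars, darker where peaks overlap, drawn within 300 bases) and footprints (black, drawn from 250 bases before to 50 after the start codon) at all 67 histone genes, in rows by class, against the distance from the start codon in bases. In the H4 rows at the bottom a black block stands near 70 bases before the start codon in 11 of 13 genes in replicate 1 and 13 of 13 in replicate 2, while the rows of Hist1h2aa and Hist1h2ba are empty.

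The octamer ATGCAAAT, the site of POU factors and a known element of H2B promoters, was found in the start codon window of 9 of 18 H2B genes and 7 of 18 H2A genes, and at 0 of the H1, H3 and H4 genes. By start site it occurred at 44.4% of H2B genes and at 1.59% of all protein-coding genes. There were 11 distinct sites, as a pair has 1 site between its genes. They are printed with the octamer in capitals and 11 bases on each side, read on the strand that spells it.
Hist3h2a: gggtaaggcatATGCAAATtaggaaggctc
Hist1h2bm: tacacgctgttATGCAAATagagacgagag
Hist1h2ah and Hist1h2bk: tagaacttcgtATGCAAATaaagtgaaatg
Hist1h2ae and Hist1h2bg: atagaggttctATGCAAATaagggactcaa
Hist1h2be: taggcagtcttATGCAAATtaagtcttact
Hist1h2ac and Hist1h2bc: tgggtgggattATGCAAATgaagtttccag
Hist1h2bb: tcaaaggctttATGCAAATaagagactcaa
Hist1h2ab: tgcaggcctttATGCAAATgaggagctcaa
Hist1h2ba and Hist1h2aa: gtgctgggtgcATGCAAATaaggggaattc
Hist2h2ac and Hist2h2be: atgaacgccttATGCAAATtaggtctcaaa
Hist2h2bb: atagagcttgtATGCAAATgaggtttcaca
All 9 sites of H2B genes spell the octamer on the strand opposite to the gene, with their first base 164 to 79 bases before its start codon. Of sites inside a peak, footprints touched 3 of 7 in replicate 1 and 4 of 8 in replicate 2. Among 8-base placements in the strongest start codon peaks, 27.1% and 40.8% touched one at H2A genes and 22.3% and 41.05% at H2B genes. Over all histone genes these shares were 29.8% and 41.5%. The octamer shares, 42.9% and 50%, were higher but rest on only 7 and 8 sites, too few to tell them from these references. An octamer touched by a footprint was present at 16.7% ± 0 (SD, n = 2) of H2B genes, the same 3 in each library, Hist1h2bc, Hist1h2bk and Hist2h2bb.

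The H1 box AAACACA was found at 5 of the 6 H1 genes, always on the gene's strand and with its first base 188 to 154 bases before the start codon. By start site it occurred at 4 of 6 H1 genes and at 6.44% of all genes. The 5 sites are printed with the box in capitals and 11 bases on each side.
Hist1h1b: tggggactaacAAACACAatttgggattg
Hist1h1d: tgaggggcaacAAACACAgccacaaggca
Hist1h1e: tgaggtgtaacAAACACAactccgcatct
Hist1h1t: ggggggaaaagAAACACAaatgcccctcc
Hist1h1c: tgaagtgtaacAAACACAagttgggcgca
The bases AAC stand just before the box at Hist1h1b, Hist1h1c, Hist1h1d and Hist1h1e, but not at Hist1h1t, the testis form. Footprints touched 2 of the 2 sites inside a peak in replicate 1 and 4 of 4 in replicate 2. Of all 7-base placements in the H1 peaks, 43.0% and 42.1% touched one. The contacts were partial, and no box lay wholly inside a footprint. In replicate 1 the footprint at Hist1h1b began at position -182 from the start codon, the last base of the box. That at Hist1h1d ended at position -180, the first base of the box. In replicate 2 the peak at Hist1h1t was at percentile 0.424, and that at Hist1h1c reached only the edge of the box. Hist1h1a was the H1 gene without these exact letters, and words that differ from them were not searched. The 200 bases before its start site are printed (chr13:23763466-23763665, plus strand, mm10), with the footprints of replicate 2 in capitals.
Hist1h1a, replicate 2: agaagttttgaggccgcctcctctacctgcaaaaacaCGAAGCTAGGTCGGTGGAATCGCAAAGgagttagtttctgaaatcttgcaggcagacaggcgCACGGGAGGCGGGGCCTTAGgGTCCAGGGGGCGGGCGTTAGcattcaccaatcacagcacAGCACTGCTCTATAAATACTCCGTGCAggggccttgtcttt
The last block of capitals includes the TATA box and was called in both libraries.

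Other promoter words differed by class. CCAAT occurred within 250 bases before to 50 after the start site at 83.6% of histone genes and at 38.9% of all genes. It was present at 18 of 18 H2A genes, 18 of 18 H2B genes, 11 of 12 H3 genes and 5 of 6 H1 genes, but at 4 of 13 H4 genes. TATAAA occurred at 55.2% of histone genes beside 12.7% of all. TGACGT, shared by cyclic AMP response elements, occurred at 26.9% beside 8.73%, and TTTNGCGC, a form of the E2F site, at 20.9% beside 1.68%, all of it in 7 H2A and 7 H2B genes. GGGCGG, the box of SP factors, occurred at 43.3% of histone genes and 43.4% of all. N stands for any base, and all words were searched on both strands.

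**Figure D4:**
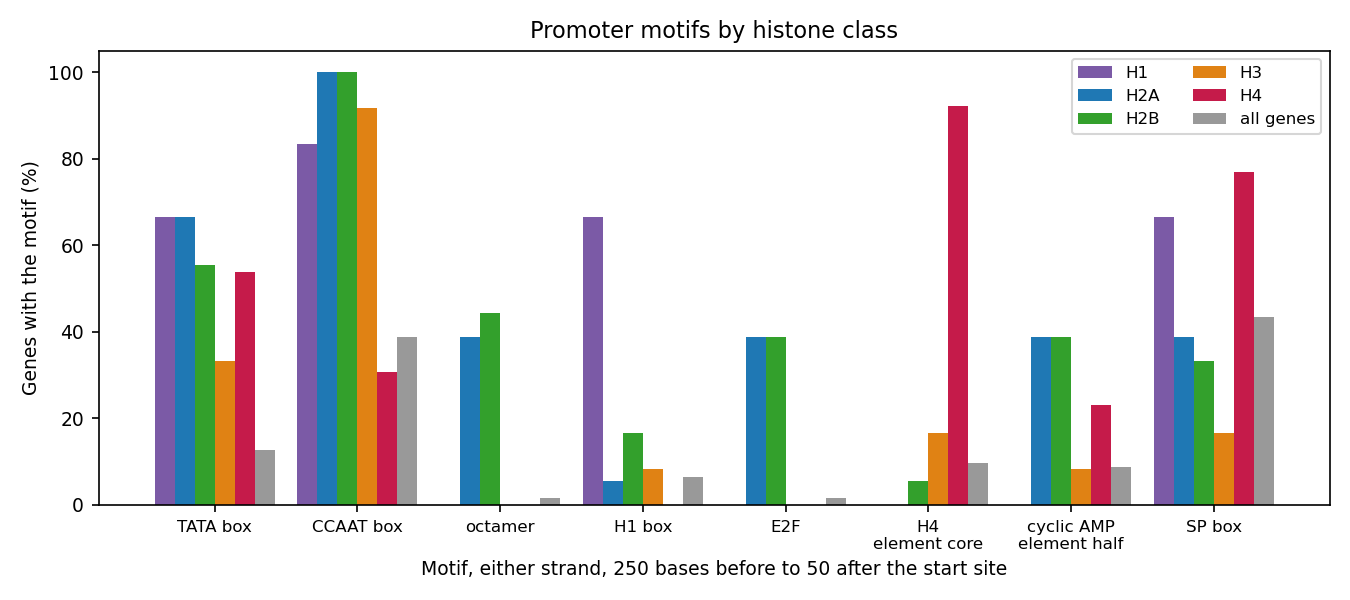
Share of genes with each motif on either strand from 250 bases before to 50 after the start site, for the 5 histone classes and for all 21755 protein-coding genes (grey). The H4 element core stands at 92.3% of H4 genes and the octamer only over H2A and H2B, whereas the SP box is at 43.4% of all genes.

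Of these words, TATAAA sites inside a peak were touched by a footprint at 17 of 26 sites in replicate 1 and 20 of 27 in replicate 2, beside 27.3% and 38.4% of 6-base placements in the histone peaks. TGACGT was touched at 7 of 10 places in both libraries, where a palindrome that spells it on both strands counts as 1 place. CCAAT was touched at 30 of 86 and 36 of 90 sites, beside 26.0% and 36.8% of 5-base placements. CCAAT, present in most of the family, thus lay closer to the placements at large than TATAAA did. Hist1h3e, where the search found CCAAT but not TATAAA, is shown by the 200 bases before its start site (chr13:23562370-23562569, minus strand, mm10), with the footprints of replicate 2 in capitals.
Hist1h3e, replicate 2: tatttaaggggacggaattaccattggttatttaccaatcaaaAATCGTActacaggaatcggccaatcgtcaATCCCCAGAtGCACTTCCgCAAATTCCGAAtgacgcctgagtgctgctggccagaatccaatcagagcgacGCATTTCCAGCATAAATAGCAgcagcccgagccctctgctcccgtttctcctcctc
Its CCAAT words, also read backward as ATTGG, lie in lower case in replicate 2, and a footprint touched 1 of the 4 in replicate 1. The block of capitals nearest the right end touched none of the searched words.

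No promoter peak was called in either library at 8 genes, Hist1h2ao, Hist1h2ap, Hist1h2bq, Hist1h2br, Hist2h3c1, Hist1h1d, Hist1h2aa and Hist1h2ba. To see where reads could be placed, the share of 32-base words that occur in the genome only a single time was taken, over the promoter and over the start codon window. Hist1h2ao, Hist1h2ap, Hist1h2bq and Hist1h2br had 0% of such words in both, and the cut rate track listed no run of bases there. They belong to a duplicated stretch of Hist1 that also holds Hist1h4m and Hist1h4n, with 10.6% and 7.64% in the start codon window and the lowest signals of the H4 class. Their 30-base stretch around the H4 element is that of Hist1h4i, whose window was 87.4% unique and whose signals were 10.03 and 12.3.

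Hist2h3c1 had 10.6% of such words in its start codon window, as did Hist2h3c2, Hist2h2aa1 and Hist2h2aa2, its neighbours in a mirrored repeat of Hist2. Of these 4 genes Hist2h3c1 alone had no peak, and the cut rate track listed a run there in replicate 2 only, at a lowest false discovery rate of 0.0467. Hist2h2aa2 had the same share of unique words and the highest signals of the H2A class. Across the family, 52 and 54 of the 57 genes with at least 50% unique words in the window had a promoter peak, beside 5 of 10 in both libraries for those with less. How far the placement of reads shaped these calls was not tested.

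**Figure D5:**
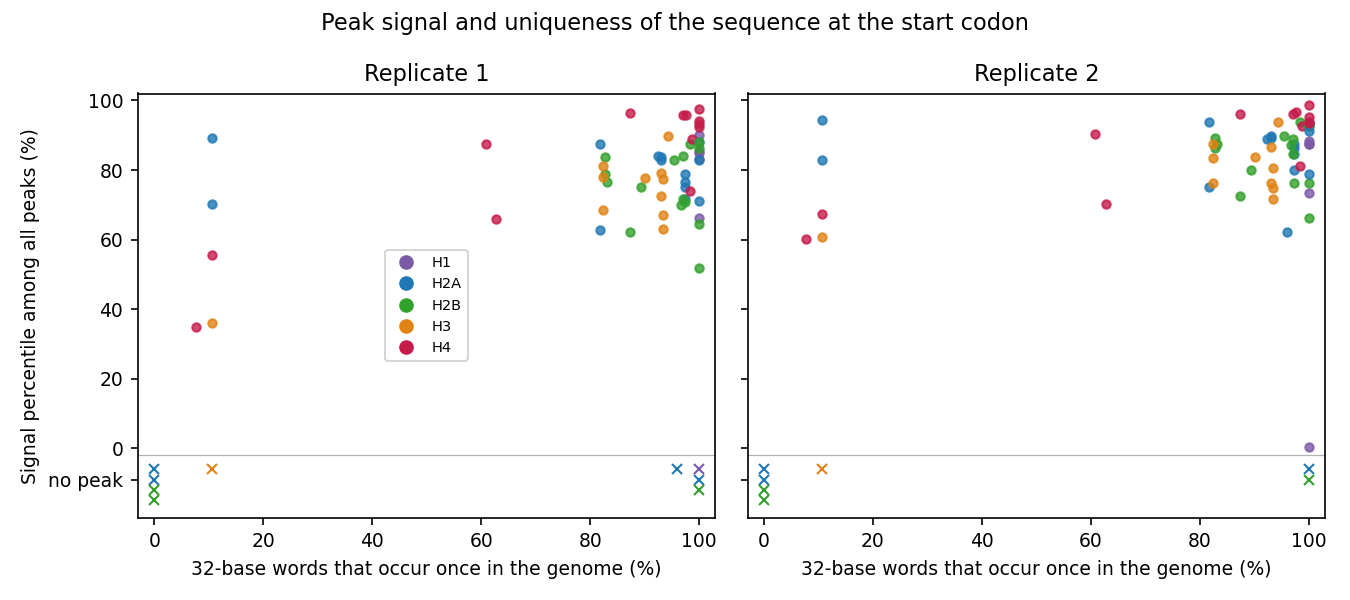
Signal percentile of the strongest peak in the start codon window against the share of 32-base words there that occur in the genome a single time, for each histone gene and library, with genes without a peak as crosses below the line. At 0% stand 4 crosses and no point in either library, and the genes with little unique sequence that have a peak reach up to percentile 94.4.

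Hist1h1d is a somatic H1 gene. Its annotated model begins 1828 bases before its start codon, and nothing was called there. At the start codon window itself a peak stood in both libraries, with signals of 4.57 and 5.58 at percentiles 83.3 and 87.5, close to those of Hist1h1a. That peak held 5 footprints in each library, and a footprint touched part of the H1 box in both.

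Hist1h2aa and Hist1h2ba, an H2A and an H2B gene known from testis, lie head to head at the far end of Hist1. Their start codon windows were 100% unique, and the cut rate track listed no run of bases within 1 kb of either in any library. The nearest peak was 16559 bases from Hist1h2aa and 16865 bases from Hist1h2ba, in both libraries. The shared promoter holds some of the words found at pairs with a peak, but how alike the promoters are was not measured. The bases between the start sites without 50 at each end are printed (chr13:23934207-23934411, plus strand, mm10), with the octamer in capitals.
Hist1h2ba to Hist1h2aa: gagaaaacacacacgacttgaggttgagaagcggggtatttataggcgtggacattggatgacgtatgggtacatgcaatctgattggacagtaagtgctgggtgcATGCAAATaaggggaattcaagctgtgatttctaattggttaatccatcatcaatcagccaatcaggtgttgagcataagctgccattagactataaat
It carries the octamer and several CCAAT words. The observed over expected CpG ratio within 500 bases was 0.683 at Hist1h2ba and 0.648 at Hist1h2aa, below the family's median of 0.879.

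Hist1h1t, the H1 gene of spermatocytes, and Hist1h2ab had a promoter peak in replicate 2 alone. The signal at Hist1h1t was 0.195, at percentile 0.424, which is near the bottom of the list, and its CpG ratio was 0.440. At Hist1h2ab it was 1.59, at percentile 62.2. Hist1h2ab also had footprints in replicate 1 without a peak in the shorter list. Of the 6 genes on the list of germ cell histones, which besides Hist1h1t, Hist1h2aa and Hist1h2ba holds H1fnt, H1foo and Hils1, 0 and 1 had a promoter peak. H1fnt, H1foo and Hils1 had none in either.

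By position, the Hist1 genes form 4 blocks separated by at least 100 kb, of 18, 5, 29 and 2 genes. Peaks were dense in those that hold somatic genes, with 1.53 and 1.70 per 10 kb in block 1, 2.85 in both libraries in block 2, and 1.74 and 2.08 in block 3. The last, with the testis pair, had 0. In the gap between blocks 2 and 3, 1485.4 kb with 40 other protein-coding genes, there were 0.202 and 0.256 peaks per 10 kb, beside 0.161 and 0.230 over the genome. The gap between blocks 1 and 2, with 3 other genes, had 0.971 and 1.23, and that between blocks 3 and 4, with 5 other genes, had 0.299 and 0.478. The Hist2 cluster had 2.49 and 2.87. Most peaks inside the blocks were promoter peaks, 34 of 41 and 39 of 49 in block 3 of Hist1. By cluster, the median percentile of the strongest promoter peak was 78.9 and 87.1 for Hist1 and 88.1 and 92.7 for Hist2. The Hist2 values are those of the peak counted for Hist2h2ab, Hist2h2ac and Hist2h2be.

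The histone genes outside the clusters and the genes that act on histones gave a frame. Of 11 genes listed as replication-independent histones, which make polyadenylated transcripts, 9 and 10 had a promoter peak. Their median percentile was 93.0 and 95.0, above that of the clustered genes in both libraries. H2afz had signals of 10.6 and 17.8, H2afv 10.7 and 17.4, and H2afx 9.94 and 16.5, and H2afy2, a macroH2A gene, had no peak. Of the genes for histone transcription and transcript processing, 17 of 17 had a peak in both. Npat, the coactivator of histone genes that resides at their loci, had 12.97 and 24.8, Upf1, a helicase of transcript decay, had 13.2 and 21.5, and Casp8ap2, a component of the same nuclear bodies, had 13.5 and 18.3. Hinfp, the factor that binds the H4 element, had 12.3 and 20.4.

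Promoter peaks were called at 15 of 15 histone chaperone genes in both libraries. The highest by mean percentile were Daxx, a chaperone of H3.3, with 14.2 and 19.8, Nap1l4 with 12.7 and 15.9, and Nap1l1 with 11.4 and 17.0. Of 22 genes of S phase, 21 and 22 had one, and the highest by mean percentile were Ccne1, a cyclin of the G1 to S transition, with 15.5 and 16.0, Mcm4, a helicase subunit, with 11.8 and 17.7, and Ccna2 with 10.2 and 16.7. The median percentiles of these lists were 92.9 and 95.4 for the chaperones and 90.0 and 93.0 for S phase. Among the clustered histone genes the H4 class alone had medians in this range.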

How the data were processed

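The readme that accompanies each library says that its peaks, footprints and cut rate track came from its own alignments on mm10, without pooling. No aligner or caller name is given in the sources used here. Each of the deposited peak lists gives a signal value per peak, whose scale is not given, and the deposited footprints and cut rate track give a false discovery rate (q-value). The cut rate track lists only runs of bases below a limit. Of the 2 peak lists per library the shorter was used. Total depth is unknown, so no interval for counting error is given.

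Genes and start sites came from the basic GENCODE annotation (vM21), and sequence from the matching RefSeq assembly of the C57BL/6 parent. How CAST reads mapped was not tested. The Y chromosome was left out, as the mice were female. Coordinates count from 1. A promoter reached 1 kb both ways from any annotated protein-coding start site, and a footprint belonged to a peak if it lay wholly inside. Percentiles were taken within each library's shorter list. Overlap counts were tested on simulated intervals. With 1 group of 2 libraries no test was run, and errors are SDs over the libraries. The labels' replicate numbers name the libraries and pair nothing. Python 3.11.15, NumPy 2.4.6 and matplotlib 3.10.9 were used.

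The members, gene lists and motifs were chosen with earlier results of these data known. Named were members without a peak in both libraries, the 2 best and 2 worst of each class by mean percentile, members outside Hist1, germ cell forms, and from each comparison list up to 3 without a peak and up to 3 of the best. Others were named after their values were seen, where a shared peak or sequence turned on them. The start codon window and the split by unique words were also chosen after seeing the data.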

Additional observations from a re-analysis of the deposited data

Results flagged for a closer look

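At Hist1h2ab the shorter peak list of replicate 1 had no promoter peak, but the longer list, which was not used for the counts above, had 1. The lowest false discovery rate of the cut rate track there was 0.00389 in replicate 1 and 6.785e-09 in replicate 2. No control sample exists against which to set it.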

How the results depend on the processing

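The share of histone genes with a promoter peak, 86.6%, rose to 97.01% with a window of 2500 bases, where only Hist1h2aa and Hist1h2ba lacked a peak. This window reached peaks of neighbouring genes. The nearest peak was that of Hist1h4m for Hist1h2ao and Hist1h2bq, and that of Hist1h4n for Hist1h2ap and Hist1h2br. For Hist2h3c1 it was a peak at Hist2h2aa1. The share was 93.0% among genes with mostly unique promoter words, an alternative added after seeing the data. For neither alternative was the share over all protein-coding genes taken. With 1 library left out, the share of histone genes lay between 85.1% and 88.1%. The median percentile of the strongest peak, 85.2, was 89.6 with the longer list and 65.5 when percentiles were taken among promoter peaks alone, and 82.9 to 87.6 with 1 library left out. Footprints numbered 3.03 per peak, or 1.38 per 100 bases of peak, a change of unit, and 2.79 to 3.28 per peak with 1 library left out. The share of peaks within the window of more than 1 histone gene, 33.8%, was 15.6% with 500 bases and 63.0% with 2500 bases, and 32.9% to 34.7% with 1 library left out. The share of H2B genes with an octamer touched by a footprint, 16.7%, was 5.56% where the octamer had to lie wholly inside and 25% with footprints widened by 5 bases, and 16.7% with either library left out. Other alternatives moved each value by less than the SD. No paired analysis was possible because the libraries form 1 group. Absence of a peak says only that none was called at an unknown depth.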
